A study of Homo sapiens with 36 samples.

Results

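Gene expression 24 h after bacterial lipopolysaccharide (LPS) was set against expression 24 h after the p38 inhibitor SB203580 given alone, in the human monocytic leukaemia line THP-1. The comparison took the arrays labelled LPS 24h and SB203580 24h, 3 of each, which are 6 of the 36 arrays of the series, and the 3 control arrays of the same time served as the baseline level. The LPS cells received 1 µg/ml LPS with no inhibitor, the SB203580 cells received 10 µM SB203580 with no stimulus, and the control cells received neither. The series text gives the inhibitor a lead of 15 min over the stimulus. The remaining 27 arrays held the same line at 4 h, and cells given the HIV-1 protein gp120 or the inhibitor together with gp120 or LPS. The series text gives DMSO and bovine serum albumin as the vehicles, for SB203580 and gp120. It does not say which vehicle the LPS cells and the control cells had. The part of the vehicle in the differences below was not tested. THP-1 is a single line from 1 leukaemia, so replicates are cultures of that line. RNA was measured on Illumina HumanHT-12 v4 bead arrays, and 13582 genes were tested.

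LPS is sensed by the receptor complex of TLR4, MD-2 (encoded by LY96) and CD14. The adaptor MyD88 passes the signal to NF-kB and the MAP kinases, p38 among them, and the adaptor TRIF to interferon genes, whose product then switches on antiviral genes in a second wave. p38 and its substrate kinase MAPKAPK2 prolong the life of AU-rich inflammatory mRNAs such as those of TNF, IL6, CXCL8 and PTGS2. SB203580 occupies the ATP pocket of p38 alpha and beta, and in the absence of a stimulus it meets the basal activity of the pathway. Whether the inhibitor also acted on other kinases at the dose used was not tested.

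The 9 arrays lay on the same slide. Their mean raw signal ran from 769.7 to 1277, with the LPS arrays at 769.7 to 801.3 and the SB203580 arrays at 790.3 to 1277, and 39.31% to 43.06% of probes were detected. Replicates correlated at 0.983 to 0.992. All 12 monocytic markers on the array were detected on every array, with a summed linear signal of 84800 to 122000 in LPS, 46500 to 56700 in SB203580 and 43100 to 60100 in control. No marker of epithelial or endothelial cells was detected on all 3 arrays of any of these groups, and 1 each of T cells and fibroblasts was in LPS. In every group 2 of B cells (CD79A, CD79B) and 3 of natural killer cells (NCAM1, NKG7, KLRF1) were detected. So were 2 of erythroid cells and platelets, which were GP9 and PPBP in LPS and SB203580. The summed signal of that last list was 441 to 461 in LPS, 540 to 828 in SB203580 and 672 to 971 in control. GP9 was called lower in LPS than in SB203580. The summed natural killer signal was 2200 to 2780 in LPS, 1840 to 2320 in SB203580 and 2090 to 2310 in control, NKG7 was called higher in LPS, and the part of such genes in the results was not tested. In such bulk RNA, a change in the cells present and a change per cell cannot be told apart.

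Values below are log2 intensities after background correction and quantile normalisation, and a difference of 1 is a doubling. Differences carry the SE of a limma fit with n = 3 arrays a group, and adjusted p-values are limma's with Benjamini-Hochberg adjustment over all genes. The fit pools the spread within groups over all 36 arrays, because 3 arrays against 3 alone leave little to estimate the spread from. An exact permutation of 3 against 3 allows a p no smaller than 0.1, and pooling does not change that limit. A gene is called at an adjusted p under 0.05. Where no array of the dimmer group was above background, the fold is given as a lower limit. On each such array the limit takes the lowest signal of any probe detected at p under 0.05, or the gene's own reading where that was higher.

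LPS and SB203580 gave different transcriptomes at 24 h. Of the genes tested, 1329 (9.79%) were called, 763 (5.62%) higher in LPS and 566 (4.17%) higher in SB203580. Of these, 500 and 251 differed at least 2-fold, and the median difference over all genes was -0.04. Without LPS replicate 1 the count was 741, and with arrays scaled to equal medians it was 687, of which 46.6% were higher in LPS in place of 57.4%. The control mean lay nearer to SB203580 than to LPS for 705 of the 763 genes higher in LPS and for 451 of the 566 higher in SB203580, given here as a description with no test. Against control, SB203580 alone changed 124 genes (0.913%), 93 (0.685%) up and 31 (0.228%) down. LPS changed 1614 genes (11.9%) against control, 897 (6.6%) up and 717 (5.28%) down. The 3 arrays of one group lay wholly above or below those of the other for 33.5% of all genes between LPS and SB203580 and for 22.9% between SB203580 and control.

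The interferon-stimulated antiviral genes were high in LPS and near the control level in SB203580. Of 42 members tested, 40 were higher in LPS than in SB203580 and none lower, with a median difference of 2.75 against -0.04 over all genes. Both exceptions are named after their values were seen. MX1 (difference 0.86, adjusted p = 0.155) and LGALS3BP (0.96, adjusted p = 0.293) did not pass. Against control, none of the 42 was called in SB203580. Only 0.913% of all genes were called in that comparison, so no call in a list of this size says little. At an unadjusted p under 0.05, none was higher there and 2, IFITM1 and IFITM2, were lower, and the median was -0.09.

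IFI27, a small protein of mitochondrial and nuclear membranes, read 7.14, 6.26 and 4.72 on the control arrays, 6.70, 5.22 and 4.94 on the SB203580 arrays and 11.52, 11.78 and 11.07 on the LPS arrays. The SB203580 and control arrays overlapped, only 1 SB203580 array was above background, and all LPS arrays stood well above both groups. The difference between LPS and SB203580 was 5.84 ± 0.78 (adjusted p = 2.59e-06). IFIT1, an antiviral RNA-binding protein, read 6.89, 7.73 and 7.15 in control, 7.30, 7.50 and 7.29 in SB203580 and 12.64, 12.19 and 11.92 in LPS. The SB203580 arrays lay within the range of the controls. LPS was higher by 4.89 ± 0.57 (adjusted p = 2.47e-07) with this probe, while the other detected IFIT1 probe gave 0.92. OAS3, which makes the 2-5A messenger of RNase L, read 8.51, 8.00 and 8.25 in control, 8.20, 8.05 and 8.02 in SB203580 and 13.08, 12.66 and 12.68 in LPS, a 26.2-fold difference (4.71 ± 0.30, adjusted p = 1.46e-12). IFITM1, a membrane barrier to viral entry, was 42.1-fold higher in LPS, with 2 of 3 SB203580 arrays above background, IFI44 33.8-fold and the viral capsid sensor MX2 30.4-fold. Among the regulators of this programme, 9 of 22 members tested were higher in LPS and none lower, IRF7 by 2.23 ± 0.38 (adjusted p = 0.000109).

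Promoter sequence was available for 32 of the 40 antiviral genes called. The core of the interferon-stimulated response element, searched as GAAANNGAAA on both strands from 250 bases before to 50 bases after the annotated start, was present in 19 of them (59.4%). It was present in 3.65% of all 27305 promoters of that length in the RefSeq table (GRCh38.p14), in 3.03% of those of the genes tested, in 9.17% of those of genes higher in LPS and in 1.94% of those of genes higher in SB203580. An NF-kB pattern, GGGANNNTCC, was in 9.17%, 6.48%, 5.38% and 5.07% of the promoters of genes higher in LPS, of genes higher in SB203580, of the genes tested and of all genes, and an AP-1 pattern, TGANTCA, in 8.17%, 3.89%, 4.75% and 7.76%. The patterns can overlap each other, and a match is a description of the letters only. The stretches below are shown because they carry these patterns in genes described here, 3 antiviral genes, a chemokine, a cytokine and the gene that SB203580 alone raised most. They run 5′ to 3′ on the strand of the gene from 20 bases before the first match upstream of the start to 20 bases after the last, or to the base before the start, with capitals marking the matches. The stretches are chr10:89392487-89392549 for IFIT1, chr14:94110608-94110670 for IFI27, chr12:112938311-112938473 for OAS3, chr4:76023645-76023738 on the minus strand for CXCL10, chr7:22727107-22727157 for IL6 and chr12:13196531-13196704 for EMP1, the others being on the plus strand.
IFIT1: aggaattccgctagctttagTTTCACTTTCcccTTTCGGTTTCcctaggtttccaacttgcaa
IFI27: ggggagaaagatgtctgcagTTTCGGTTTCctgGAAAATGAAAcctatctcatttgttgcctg
OAS3: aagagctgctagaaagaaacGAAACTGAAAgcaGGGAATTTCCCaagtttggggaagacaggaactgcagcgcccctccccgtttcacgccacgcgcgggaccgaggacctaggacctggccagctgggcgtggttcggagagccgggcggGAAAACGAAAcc
CXCL10: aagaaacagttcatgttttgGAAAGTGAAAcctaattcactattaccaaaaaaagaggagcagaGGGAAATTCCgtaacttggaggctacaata
IL6: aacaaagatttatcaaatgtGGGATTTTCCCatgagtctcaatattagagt
EMP1: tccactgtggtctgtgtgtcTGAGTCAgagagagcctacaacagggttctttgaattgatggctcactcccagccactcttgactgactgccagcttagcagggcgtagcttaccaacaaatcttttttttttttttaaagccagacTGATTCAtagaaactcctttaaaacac
IFIT1 and IFI27 each carry a pair of response-element cores within a short stretch, OAS3 carries 2 cores with an NF-kB pattern beside the first, and CXCL10 carries 1 core and 1 NF-kB pattern. The IL6 stretch holds the NF-kB pattern read on both strands over the same bases, and the EMP1 stretch holds 2 AP-1 patterns and neither of the other patterns.

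Chemokines were high in LPS, and a few were partly raised by SB203580 alone. Of 20 members tested, 14 were higher in LPS and none lower, with a median difference of 2.63. CCL2, which draws monocytes, read 4.71, 4.79 and 4.72 in control, 7.28, 6.22 and 6.22 in SB203580 and 13.70, 12.96 and 11.51 in LPS. All 3 SB203580 arrays lay above the controls, none of which was above background, and far below the LPS arrays. The LPS level was 71.0-fold that of SB203580 (6.15 ± 0.73, adjusted p = 3.26e-07). The difference of SB203580 from control was 1.84 ± 0.73 (adjusted p = 0.357), which did not pass, although it did with the slide's 12 arrays normalised alone. CXCL8, the neutrophil chemokine interleukin-8, read 7.65, 8.99 and 7.38 in control, 9.26, 9.88 and 8.57 in SB203580 and 15.03, 14.47 and 13.85 in LPS. The SB203580 and control arrays overlapped, and the LPS arrays stood 5.21 ± 0.40 above SB203580 (adjusted p = 9.24e-11). SB203580 differed from control by 1.23 ± 0.40 (adjusted p = 0.185).

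CXCL10, a chemokine for T cells induced by interferon, read 5.34, 4.93 and 5.10 in control, 4.97, 5.32 and 5.33 in SB203580 and 10.60, 10.25 and 10.15 in LPS. No control or SB203580 array was above background, and LPS was at least 26.8-fold higher (5.13 ± 0.27, adjusted p = 2.49e-14). CXCL13, which draws B cells, was at least 22.9-fold higher in LPS, with arrays at 5.00, 5.40 and 4.98 in SB203580 and 10.59, 9.61 and 10.12 in LPS. CCL20, the ligand of CCR6, was 29.0-fold higher in LPS, with 2 of 3 SB203580 arrays above background. CCL22, a ligand of CCR4, read 6.37, 6.32 and 5.78 in SB203580 and 11.46, 8.67 and 8.78 in LPS, so that LPS replicate 1 stood well above the other two.

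The 4 chemokines that SB203580 alone raised over control were CCL3, CCL3L3, CCL4L1 and CCL5, named after their values were seen. CCL5, a chemokine for T cells and monocytes, read 12.55, 12.71 and 12.51 in control, 13.77, 13.95 and 13.73 in SB203580 and 14.41, 13.52 and 13.39 in LPS. The SB203580 arrays were all above the controls and within the range of the LPS arrays. SB203580 was higher than control by 1.23 ± 0.24 (adjusted p = 0.00653; 0.0516 without SB203580 replicate 2), and LPS differed from SB203580 by -0.04 ± 0.24 (95% interval -0.54 to 0.46). CCL3 read 6.35, 7.42 and 5.67 in control, 8.46, 8.91 and 8.64 in SB203580 and 12.26, 12.04 and 10.80 in LPS. The 3 groups did not overlap, with steps of 2.19 ± 0.45 from control to SB203580 (adjusted p = 0.00794) and 3.03 ± 0.45 from SB203580 to LPS (adjusted p = 1.34e-05). Probes for CCL3, CCL3L3 and CCL4L1 can take signal from near-identical copies, so these genes are uncertain as separate genes. The step over control passed for CCL3 and CCL3L3 in the pooled fit but not with only the 12 arrays of the slide in the fit, and that of CCL4L1 did not pass without background correction.

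**Figure D1:**
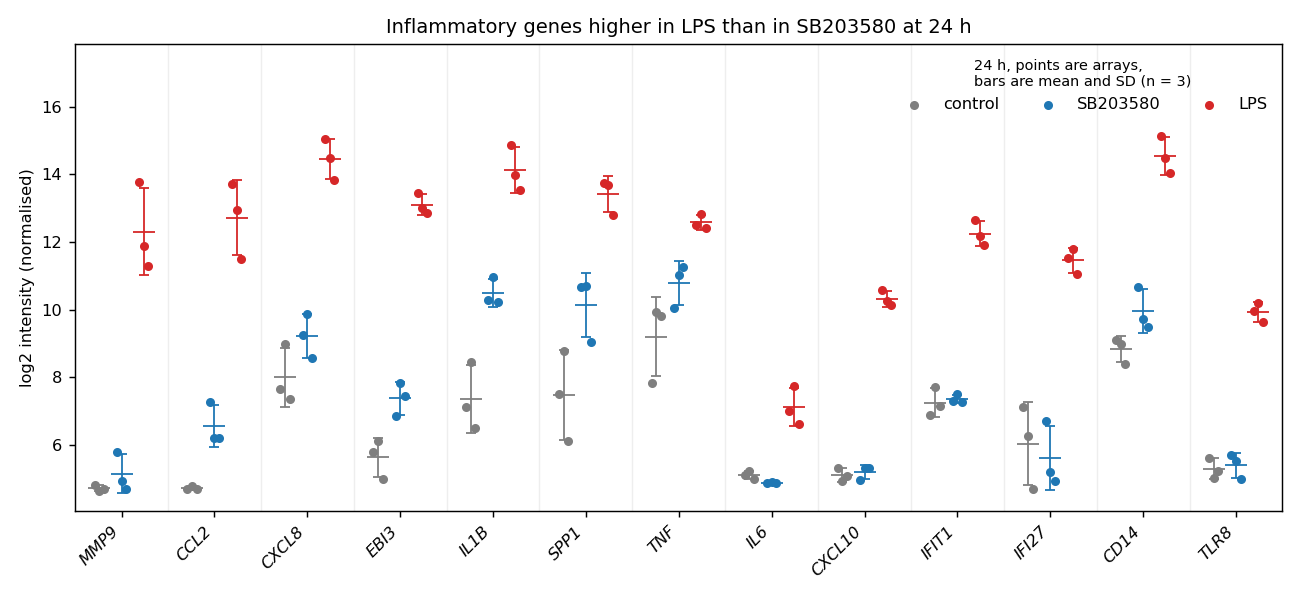
Normalised log2 intensity of 13 inflammatory genes on each array at 24 h, with control, SB203580 and LPS side by side, where points are arrays and bars the mean and SD of 3. LPS arrays stand above the SB203580 arrays for every gene shown, and SB203580 arrays lie above all control arrays for CCL2, EBI3, IL1B, SPP1, TNF and CD14.

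Among cytokines and their inhibitors 12 of 23 tested were higher in LPS and none lower (median difference 1.46), and IL1B and EBI3 were the 2 that SB203580 alone raised. IL1B, the pyrogenic cytokine interleukin-1 beta, read 7.12, 8.45 and 6.51 in control, 10.29, 10.97 and 10.22 in SB203580 and 14.87, 13.99 and 13.54 in LPS. The 3 groups formed 3 separate steps with no overlap. SB203580 lay 3.13 ± 0.54 above control (adjusted p = 0.00195), and LPS lay a further 3.64 ± 0.54 above SB203580 (adjusted p = 1.5e-05), which is 12.4-fold. The SB203580 step was called under every alternative tried, at 2.46 to 3.68. EBI3, a subunit of interleukin-27, read 5.81, 6.12 and 5.00 in control, 6.87, 7.85 and 7.45 in SB203580 and 13.46, 13.01 and 12.84 in LPS. It also stepped upward without overlap, by 1.75 ± 0.38 over control (adjusted p = 0.0128) and by 5.71 ± 0.38 from SB203580 to LPS (adjusted p = 2.94e-12). The first step did not pass with only the slide's 12 arrays in the fit, nor without control replicate 3, SB203580 replicate 2 or SB203580 replicate 3.

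TNF was already expressed in control, at 7.85, 9.94 and 9.82, and read 10.04, 11.04 and 11.27 in SB203580 and 12.52, 12.83 and 12.41 in LPS. The SB203580 arrays were above all the controls, by 1.58 ± 0.41 (adjusted p = 0.0617), and that difference passed with equal medians (1.94) and on leaving out control replicate 2 (1.95), control replicate 3 (1.89) or SB203580 replicate 1 (1.95). LPS was 3.49-fold above SB203580 (1.80 ± 0.41, adjusted p = 0.00355). IL6 showed no such middle step. It read 5.11, 5.24 and 5.01 in control and 4.89, 4.92 and 4.87 in SB203580, none above background, and 7.00, 7.74 and 6.64 in LPS, at least 2.91-fold higher (adjusted p = 4.85e-05). IL23A, a subunit of interleukin-23, was 7.28-fold higher in LPS, and the interleukin-1 receptor antagonist IL1RN 4.42-fold. IL10, an anti-inflammatory cytokine, read 11.41, 11.65 and 11.45 in SB203580 and 11.36, 11.30 and 11.65 in LPS, with a difference of -0.07 ± 0.26 (95% interval -0.60 to 0.47). PTGS2, the inducible cyclooxygenase, read 8.62, 8.28 and 8.01 in SB203580 and 9.94, 9.23 and 9.00 in LPS. Its groups did not overlap, and the difference of 1.09 ± 0.32 (adjusted p = 0.0249) was lost without LPS replicate 1 (0.81), SB203580 replicate 2 (1.07) or SB203580 replicate 3 (0.94) and with equal medians (0.72).

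NF-kB subunits and their feedback inhibitors were higher in LPS for 16 of 21 members tested and lower for none (median difference 1.56). The inhibitor NFKBIA read 10.69, 11.03 and 10.65 in control, 10.95, 11.05 and 10.96 in SB203580 and 13.70, 13.36 and 13.15 in LPS. Its SB203580 and control arrays overlapped, and LPS was 5.33-fold above SB203580 (2.42 ± 0.23, adjusted p = 6.35e-09). BCL3, a nuclear partner of NF-kB, was 9.26-fold higher in LPS, TNIP3, a ubiquitin-binding inhibitor of the pathway, at least 5.38-fold and the adhesion molecule ICAM1 6.23-fold. SB203580 alone raised RELB, an NF-kB subunit, by 0.96 ± 0.23 (adjusted p = 0.0275) and TNFAIP3, the deubiquitinase A20, by 1.35 ± 0.34 (adjusted p = 0.0412). Both were named after their values were seen, and both lost the call under most alternatives that left out an array.

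The sensing apparatus itself differed. Of 19 members tested in the list of Toll-like receptors and LPS recognition, 11 were higher in LPS, none was lower, and the median difference was 0.93. CD14, the coreceptor that hands LPS to TLR4, read 9.11, 8.99 and 8.40 in control, 10.68, 9.73 and 9.48 in SB203580 and 15.12, 14.48 and 14.02 in LPS. The LPS arrays stood apart by 4.58 ± 0.54 (adjusted p = 2.97e-07), and SB203580 differed from control by 1.13 ± 0.54 (adjusted p = 0.517). TLR8, an endosomal RNA sensor, read 5.71, 5.54 and 5.00 in SB203580, where 2 of 3 arrays were above background, and 9.95, 10.21 and 9.64 in LPS, a 22.9-fold difference. LY96 was 6.56-fold and TLR1, which pairs with TLR2 on lipopeptides, 5.14-fold higher in LPS. None of the 19 was called in SB203580 against control, beside 0.913% of all genes, with 3 higher and 2 lower at an unadjusted p under 0.05.

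Antigen presentation and matrix genes were called in part. Of 10 tested members of MHC class II and costimulation, 8 were higher in LPS (median 1.04), among them CD86 by 2.18 ± 0.24 (adjusted p = 9.56e-08). CD80, at least 2.17-fold higher in LPS, was above background only there. The invariant chain CD74 was higher in LPS by 1.05 ± 0.19 (adjusted p = 0.000221), a call lost with equal medians (0.69). Of 19 tested members of the list of metalloproteinases and matrix proteins, 6 were higher in LPS and 1, TIMP3, was lower (median 0.48). MMP9, a gelatinase, read 4.82, 4.65 and 4.72 in control, 5.81, 4.95 and 4.72 in SB203580 and 13.77, 11.87 and 11.29 in LPS. It had the largest difference of the 13582 genes, 7.15 ± 0.40 (adjusted p = 1.16e-13), with LPS replicate 1 highest and 1 SB203580 array above background. Single genes of other lists also differed. S100A12, a calcium-binding alarmin, read 5.31, 4.95 and 4.65 in SB203580 and 10.81, 9.96 and 10.10 in LPS, at least 26.0-fold higher. The inflammatory caspase CASP5 was at least 4.98-fold, complement C3 at least 5.09-fold, the guanylate-binding protein GBP1 at least 7.66-fold, the oxidised-LDL receptor OLR1 at least 6.28-fold and the SLAM-family ligand CD48 at least 10.7-fold higher in LPS, all with no SB203580 array above background. TDO2, a tryptophan dioxygenase, was 19.3-fold higher in LPS (4.27 ± 0.38, adjusted p = 2.31e-09).

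SPP1 and SLAMF8 followed the pattern of IL1B. SPP1, the matrix cytokine osteopontin, read 7.50, 8.78 and 6.13 in control, 10.66, 10.71 and 9.04 in SB203580 and 13.74, 13.70 and 12.80 in LPS. Its 3 groups did not overlap, SB203580 lay 2.66 ± 0.50 above control (adjusted p = 0.00342) and LPS 3.28 ± 0.50 above SB203580 (adjusted p = 1.83e-05). The first step did not pass without control replicate 3 (1.99) or with only the slide's 12 arrays in the fit. SLAMF8, a surface receptor of the SLAM family, read 5.21, 5.31 and 5.09 in control, none above background, 7.24, 7.60 and 7.00 in SB203580 and 11.51, 11.21 and 10.53 in LPS. SB203580 was at least 3.08-fold above control (adjusted p = 0.00109), and LPS was 14.0-fold above SB203580 (adjusted p = 2.53e-09).

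**Figure D2:**
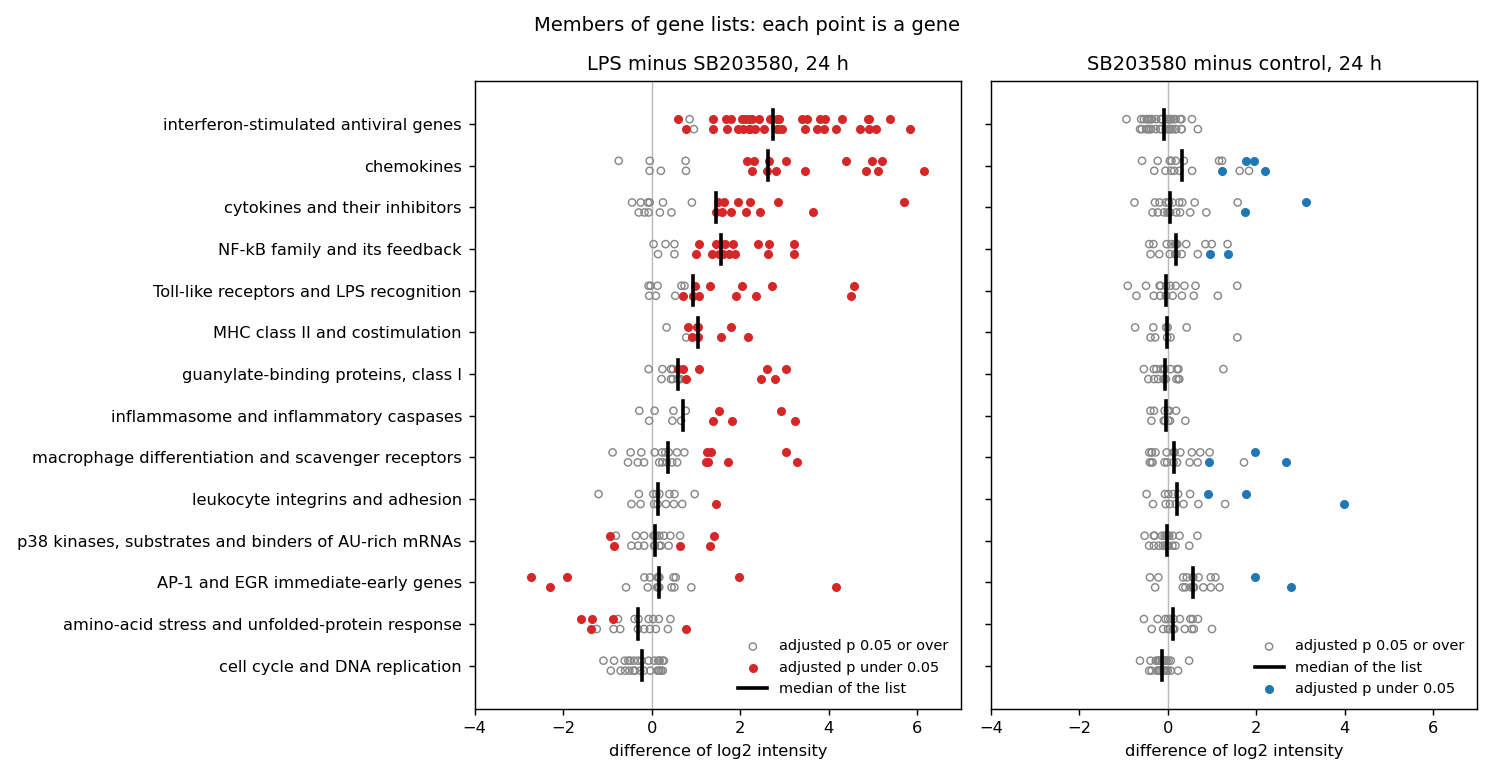
Difference of log2 intensity for each tested member of 14 gene lists, LPS minus SB203580 on the left and SB203580 minus control on the right, where filled points passed an adjusted p of 0.05 and black bars are list medians. In the left panel the antiviral genes are centred at 2.75 with 40 filled points of 42, while in the right panel their median is -0.09 with none filled. Over all genes, 9.79% were called in the left comparison and 0.913% in the right.

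Another set of genes was raised both by SB203580 alone and by LPS, and was not called between them. EMP1, a membrane protein of the PMP22 family, rose most over control. It read 5.42, 7.32 and 5.71 in control, 9.50, 10.64 and 10.29 in SB203580 and 8.50, 9.68 and 8.65 in LPS. The SB203580 and LPS arrays overlapped and both lay above all the controls. SB203580 was 3.99 ± 0.46 above control (adjusted p = 5.17e-06) and LPS 2.79 (adjusted p = 4.23e-05), while LPS minus SB203580 was -1.20 ± 0.46 (95% interval -2.13 to -0.27 before adjustment, adjusted p = 0.103). RIN2, an activator of the endosomal GTPase Rab5, read 5.36, 6.05 and 4.89 in control, 8.42, 8.72 and 8.26 in SB203580 and 8.85, 8.83 and 8.05 in LPS. Its SB203580 arrays lay within the LPS range, and LPS minus SB203580 was 0.11 ± 0.39 (95% interval -0.69 to 0.92), beside 3.03 ± 0.39 for SB203580 minus control (adjusted p = 3.71e-05).

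GDF15, a stress cytokine of the TGF-beta family, read 6.19, 6.31 and 6.83 in control, 9.53, 9.13 and 9.74 in SB203580 and 9.31, 8.56 and 7.90 in LPS. SB203580 was 3.03 ± 0.47 above control (adjusted p = 0.000563), and its arrays overlapped those of LPS. A2M, a broad protease inhibitor, rose by 2.92 ± 0.47 (adjusted p = 0.000812), PHLDA1, an early response gene, by 2.70 ± 0.33 (adjusted p = 1.41e-05) and FMNL2, a formin that builds actin filaments, by 2.63 ± 0.24 (adjusted p = 1.01e-07). None of these 4 genes was called between LPS and SB203580, with intervals of -1.84 to 0.08 for GDF15, -1.65 to 0.26 for A2M, -1.09 to 0.26 for PHLDA1 and -0.25 to 0.74 for FMNL2. The A2M arrays nevertheless did not overlap, at 9.89, 10.59 and 10.10 in SB203580 and 9.48, 9.44 and 9.57 in LPS. The increases over control of EMP1, RIN2, GDF15, A2M, PHLDA1 and FMNL2 passed under each alternative tried. The total of 124 did not hold as well. It was 67 without control replicate 1, 73 without control replicate 3, 60 without SB203580 replicate 2 and 75 without SB203580 replicate 3.

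A further set was raised by SB203580 and not called in LPS against control, so that it stood highest in SB203580. EGR1, an immediate-early zinc-finger factor, read 9.62, 11.00 and 11.06 in control, 12.38, 12.52 and 12.70 in SB203580 and 9.97, 10.58 and 10.16 in LPS. The SB203580 arrays stood above all 6 others, by 1.97 ± 0.38 over control (adjusted p = 0.0048) and 4.91-fold over LPS (adjusted p = 7.26e-05). The difference from control did not pass without control replicate 1 (adjusted p = 0.0838). Its relative EGR3 read 5.04, 5.27 and 5.19 in control, 8.31, 7.78 and 7.78 in SB203580 and 5.24, 5.50 and 4.98 in LPS. No control or LPS array was above background, and SB203580 was at least 4.93-fold above control (adjusted p = 0.0104) and at least 4.94-fold above LPS (adjusted p = 0.00181). The difference from control did not pass without control replicate 1 or SB203580 replicate 1, at 2.73 and 2.61 on the log2 scale.

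COL22A1, a collagen of tissue junctions, was above background only in SB203580, at 8.12, 8.24 and 7.08 against 5.13, 5.09 and 4.99 in control and 4.81, 4.94 and 4.96 in LPS. It was at least 4.47-fold above LPS (adjusted p = 4.15e-09) and at least 4.46-fold above control (adjusted p = 2.72e-07). CYP19A1, the aromatase that makes oestrogens, read 5.25, 5.34 and 5.26 in control, 7.78, 7.48 and 7.69 in SB203580 and 5.24, 5.87 and 5.74 in LPS. The SB203580 arrays were again the highest, 4.09-fold above LPS (adjusted p = 6.37e-05). Of 20 tested members of the AP-1 and EGR list, 3 were higher in SB203580 than in LPS, EGR1, EGR3 and KLF2, and 2 were higher in LPS, JUN and IER3. The median of that list, 0.16, turned negative with equal medians.

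**Figure D3:**
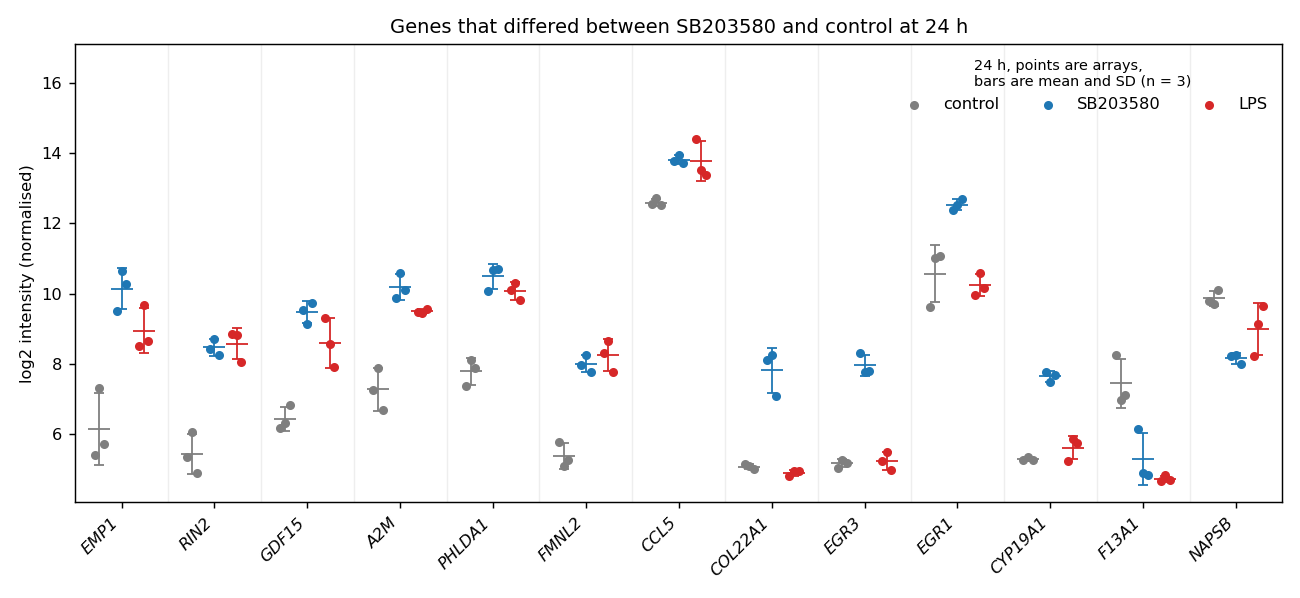
Normalised log2 intensity on each array at 24 h of 13 genes called between SB203580 and control, in control, SB203580 and LPS, where points are arrays and bars the mean and SD of 3. SB203580 arrays overlap the LPS arrays for EMP1, RIN2, GDF15, PHLDA1, FMNL2 and CCL5, and stand above both other groups for A2M, COL22A1, EGR3, EGR1 and CYP19A1. Of these last, A2M was not called between LPS and SB203580.

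SB203580 lowered 31 genes against control, a count that was 1 with equal medians and 11 without SB203580 replicate 2. F13A1, the catalytic chain of coagulation factor XIII, read 8.24, 6.98 and 7.11 in control, 6.13, 4.89 and 4.83 in SB203580 and 4.66, 4.82 and 4.70 in LPS. It fell by 2.16 ± 0.39 on the log2 scale from control to SB203580 (adjusted p = 0.00289), and 1 SB203580 and no LPS array was above background. NAPSB, an aspartic peptidase pseudogene, fell by 1.71 ± 0.26 in SB203580 (adjusted p = 0.000444; 0.0514 with equal medians), with arrays at 9.79, 9.69 and 10.10 in control, 8.22, 8.26 and 7.98 in SB203580 and 8.21, 9.13 and 9.65 in LPS. CXCR4, a chemokine receptor and HIV-1 coreceptor, read 8.94, 8.09 and 7.40 in control, 7.50, 6.21 and 4.99 in SB203580 and 7.77, 8.47 and 8.53 in LPS. The SB203580 arrays spread widely and reached the controls, at -1.91 ± 0.50 against control (adjusted p = 0.0636), which passed without SB203580 replicate 1 (-2.54) and with the mean of probes (-1.84). LPS was 2.02 ± 0.50 above SB203580 (adjusted p = 0.00723), a call lost without SB203580 replicate 3 (1.40) and with equal medians (1.60).

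Several of the largest differences in favour of SB203580 were genes that LPS had lowered against control. TIMP3, an inhibitor of metalloproteinases, read 10.42, 11.06 and 11.76 in control, 12.06, 12.43 and 12.88 in SB203580 and 8.46, 9.23 and 8.85 in LPS. LPS lay below every other array, 12.2-fold below SB203580 (-3.61 ± 0.46, adjusted p = 9.52e-07). CEP70, a centrosomal protein, read 7.79, 7.57 and 7.93 in control and 8.02, 8.11 and 7.82 in SB203580 and was not above background in LPS, so SB203580 was at least 5.03-fold higher (adjusted p = 0.000162). FBP1, an enzyme of gluconeogenesis, was 5.26-fold higher in SB203580, with arrays at 10.11, 9.34 and 9.08 in control, 9.64, 9.05 and 8.87 in SB203580 and 6.33, 6.87 and 7.18 in LPS. CAV1 (caveolin-1), PINK1 (a mitochondrial kinase) and the complement protease C1S stood 5.17-fold, 4.30-fold and 4.02-fold higher in SB203580 than in LPS, with LPS below all control arrays for each. FCER2, the low-affinity IgE receptor CD23, and ATP1B1, a subunit of the sodium pump, were 8.75-fold and 7.96-fold higher in SB203580, with 2 of 3 and 1 of 3 LPS arrays above background. LPS did not pass against control for FCER2 (adjusted p = 0.268). SB203580 itself lay above control for ATP1B1, by 1.227 ± 0.285 (adjusted p = 0.0246). For FCER2 it lay 1.791 ± 0.712 above control, which did not pass (adjusted p = 0.362).

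Some other lists held many calls and some held none. Of 12 host HIV restriction factors tested, 6 were higher in LPS, TRIM22 and IFITM3 among them, and none was lower. Of 15 SLAM-family and inhibitory receptors, 7 were higher in LPS and 1, CD300LF, was lower, and of 12 chemokine and HIV-1 entry receptors 5 were higher and none lower. Of 19 kynurenine, pterin and prostanoid enzymes, 7 were higher and none lower. Of 20 members tested for amino-acid stress, 4 were higher in SB203580 (ASNS, TRIB3, PHGDH and VLDLR) and 1 in LPS (CALR), and ASNS, asparagine synthetase, differed by -1.59 ± 0.27 (adjusted p = 0.000115). None of the 29 cell-cycle genes tested was called by limma in either direction, and none reached an unadjusted p under 0.05. Their median difference was -0.225, beside -0.039 over all genes. None of the 17 genes of the respiratory chain was called, with 1 higher and 1 lower at that p. Of 23 tested members of the p38 pathway, 3 were higher in LPS (MAP2K3, MAP3K8, ZFP36L1) and 2 lower (ELAVL1, RPS6KA4). None of the 23 was called in SB203580 against control, beside 0.913% of all genes, and 2 were higher at an unadjusted p under 0.05. MAPKAPK2 read 9.32, 9.26 and 9.21 in SB203580 and 9.04, 9.20 and 9.05 in LPS, a difference of -0.17 ± 0.21. MAPK14, the gene of p38 alpha, was not among the genes tested.

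The same contrast at 4 h, where 3080 genes were called (22.7%), 1136 (8.36%) higher and 1944 (14.3%) lower in LPS, showed which of these differences were late. LPS and SB203580 arrays of 4 h lay together on another slide, so an additive slide effect cancels in the change of the difference between times, which was called for 1364 genes (10.0%), 850 (6.26%) larger and 514 (3.78%) smaller at 24 h. That count was 317 with equal medians and 960 without LPS replicate 1 of 4 h. That array had a mean raw signal of 456.7, with 35.47% of probes detected. The other LPS and SB203580 arrays of 4 h had 742.3 to 946.7 and 40.57% to 42.59%. At 4 h the replicate numbers passed the criterion for pairing (correlations of deviations 0.424, 0.122 and 0.404). LPS replicate 2 nevertheless correlated best with an SB203580 array of another number. With the numbers as a block within each time the change was called for 2416 genes. MMP9 read 5.06, 4.67 and 4.65 in SB203580 and 4.70, 5.10 and 4.69 in LPS at 4 h, and none of these arrays was above background. Its fitted change in the difference, 7.11 ± 0.56 (adjusted p = 6.75e-10), is therefore measured against background at 4 h. CD14 read 10.07, 8.84 and 8.74 in SB203580 and 9.37, 8.26 and 8.17 in LPS at 4 h. LPS was lower in each of the 3 replicate numbers at 4 h, by a mean difference of -0.62 (adjusted p = 0.461, and 0.0351 with the block), and far higher at 24 h, and the change was 5.19 ± 0.76 (adjusted p = 2.61e-05). TLR8 and S100A12 were likewise not above background on any of these 4 h arrays, and CXCL13 was on 1, an LPS array.

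The reverse was found for ATP1B1, ELOVL7 and SGPP2. ATP1B1 was higher in LPS at 4 h, by 2.27, and lower at 24 h, by -2.99, a change of -5.26 ± 0.40 (adjusted p = 4.57e-10). ELOVL7, a fatty acid elongase, differed by 4.83 at 4 h and by -0.14 at 24 h, and SGPP2, a sphingosine-1-phosphate phosphatase, was above background only in LPS at 4 h, on all 3 arrays. By list, the change was called larger at 24 h for 16 of 42 antiviral genes and smaller for none, and for NF-kB genes larger for 1 and smaller for 10 of 21. IL23A and CD40 stayed higher in LPS while their differences became smaller, from 6.63 to 2.86 (adjusted p = 5.11e-06) and from 4.40 to 1.80 (adjusted p = 0.0055). The other detected CD40 probe gave 0.696 at 24 h and was not called. The CXCL10 and IL6 differences at 24 h, 5.13 and 2.23, stood beside 6.15 and 2.24 at 4 h, and neither change was called.

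**Figure D4:**
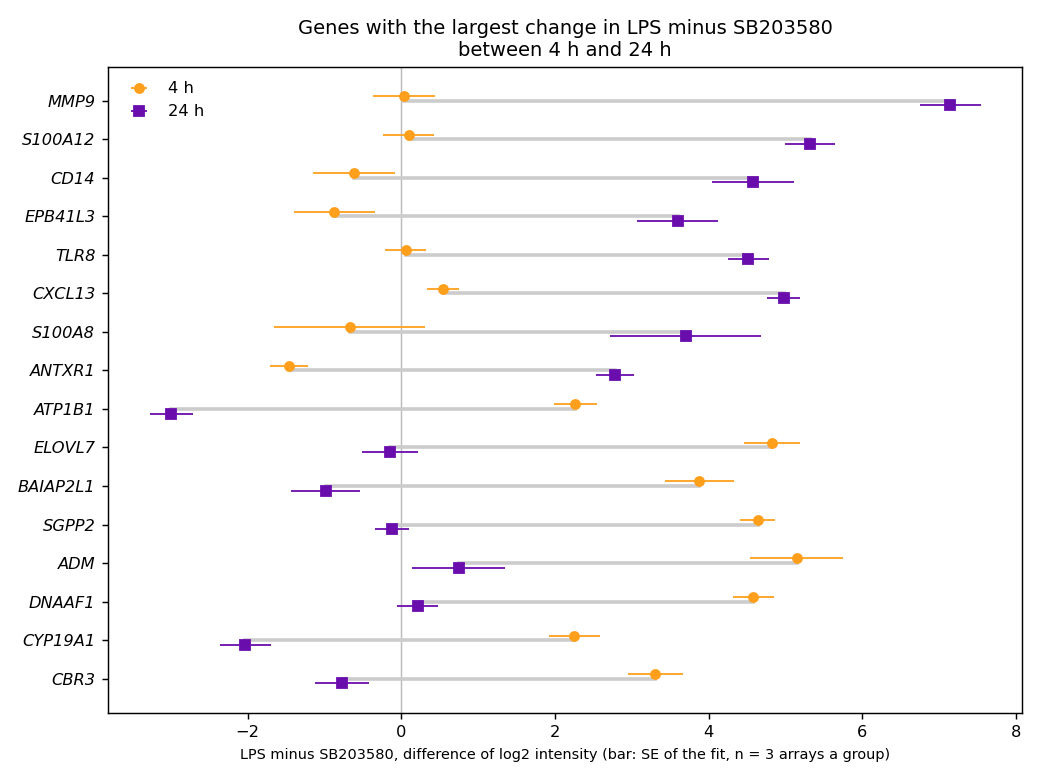
LPS minus SB203580, as a difference of log2 intensity, at 4 h (circles) and 24 h (squares) for the 8 genes with the largest called increase and the 8 with the largest called decrease between the times, with SE bars from the fit. ATP1B1 crosses from 2.27 to -2.99, while MMP9 is near 0 at 4 h, where no array was above background, and at 7.15 at 24 h.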

How the data were processed

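THP-1 RNA was hybridised to Illumina HumanHT-12 v4 arrays. Per the file headers, the deposited table held raw mean bead intensity and detection p-values, 47222 probes by 36 arrays; 72 further columns of bead numbers and errors were not used. The authors' deposited value table is on a log2 scale and equalled quantile-normalised log2 raw intensity to within 0.00079; it served as an alternative. The series text names GeneSpring GX.

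The limma package (version 3.58.1, under R 4.3.3) normalised the intensities by its neqc function, with offset 16 and background taken from the detection p-values. Probes detected at p under 0.05 on at least 3 arrays were kept (26473), named from the platform annotation updated by RefSeq gene ID (30112 probes with 1 symbol, 8 with several, 17102 with none). The probe with the highest mean stood for each of 13582 genes; 3777 genes had more than 1. CTSC had probes called in both directions. The number of arrays limits precision.

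One mean for each of 12 groups was fitted with lmFit and eBayes; all tests were two-sided, at an adjusted p under 0.05. The fit was tested on simulated data. The members and the gene lists were chosen with earlier results of these data known. Genes were named by size (20 largest each way between LPS and SB203580, 10 each way against control, 8 each way between times), up to 6 called members of a list, and 22 fixed genes, not all of which were tested; a few named outside this are marked in the text. Numbers were taken to pair samples where all 3 correlations of deviations passed 0.1: they did for LPS and SB203580 at 4 h (0.424, 0.122, 0.404), and not at 24 h for LPS and SB203580 (0.131, -0.0125, 0.166), SB203580 and control (0.355, 0.083, 0.251) or LPS and control (0.111, 0.0537, 0.148). The alternatives were no background correction, equal medians, the authors' values, other filters, the mean of probes, a replicate block, fewer arrays in the fit or the normalisation, another variance model, and leaving out each array. Promoters came from RefSeq (GRCh38.p14).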

Additional observations from a re-analysis of the deposited data

Results flagged for a closer look

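The difference between LPS and SB203580 itself changed between 4 h and 24 h for 1364 genes, tested as an interaction in the limma fit with 3 arrays a group. Where a group was not above background its values are bounds, so the fitted changes below have no fixed order. That was so in both groups at 4 h for MMP9, S100A12 and TLR8, in SB203580 at both times for S100A12, CXCL13, DNAAF1 and SGPP2, and in LPS at 24 h for SGPP2. The fitted changes upward were those of MMP9 (7.11, adjusted p = 6.75e-10), S100A12 (5.22, adjusted p = 4.58e-09), CD14 (5.19, adjusted p = 2.61e-05), EPB41L3 (4.47, adjusted p = 0.000138), TLR8 (4.46, adjusted p = 1.6e-09), CXCL13 (4.44, adjusted p = 2.65e-11), S100A8 (4.37, adjusted p = 0.0413) and ANTXR1 (4.24, adjusted p = 1.6e-09). The S100A8 call was lost in most alternatives that left out an array, and its 4 h arrays ranged from 9.31 to 12.19 in SB203580 and from 7.93 to 11.92 in LPS. These ranges include differences between replicate numbers. At 4 h S100A8 was lower in LPS by a mean difference of -0.668 (limma adjusted p = 0.691, and 0.0115 with the block).

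The fitted changes downward were those of ATP1B1 (-5.26, adjusted p = 4.57e-10), ELOVL7 (-4.97, adjusted p = 1.54e-07), BAIAP2L1 (-4.86, adjusted p = 5.33e-06), SGPP2 (-4.76, adjusted p = 2.65e-11), ADM (-4.40, adjusted p = 0.000829), DNAAF1 (-4.37, adjusted p = 3.22e-09), CYP19A1 (-4.29, adjusted p = 4.07e-07) and CBR3 (-4.08, adjusted p = 1.82e-06). ATP1B1 and CYP19A1 were higher in LPS at 4 h and higher in SB203580 at 24 h.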

How the results depend on the processing

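Counts of called genes moved as follows. Scaling to equal medians gave 687 between LPS and SB203580, where the median of all genes shifted from -0.04 to -0.29, 692 for LPS against control (76.3% higher in LPS in place of 55.6%) and 317 for the change between times. For SB203580 against control it gave 88, with 98.9% higher in place of 75.0% (1 lowered gene in place of 31). A replicate block within each time gave 2237, 478, 2695 and 2416 for LPS against SB203580, SB203580 against control, LPS against control and the change between times, and 4293 in place of 3080 at 4 h, an alternative chosen after seeing the data. The numbers passed the criterion at 4 h and missed it at 24 h. The best correlation was with the same number in 2 of 3 for LPS and SB203580 at both times. It was so in 3 of 3 at 24 h for SB203580 and control and for LPS and control. Leaving out 1 array gave 741 to 1286, 60 to 98, 1029 to 1623 and 960 to 1484, in the same order. Without LPS replicate 1 the first was 741 and the third 1029. SB203580 against control gave 67 without control replicate 1, 73 without control replicate 3, 60 without SB203580 replicate 2 and 75 without SB203580 replicate 3. The causes were not tested. Some differences that were never called changed sign, and the values given for them are log2 differences, not p-values. Between LPS and SB203580, IL10 turned to a difference of 2.61e-06 without LPS replicate 2 and 0.00514 without SB203580 replicate 2 (-0.172 to 0.00514 without any 1 array). ZFP36 turned to -0.22 with equal medians. For CCL22 the change between times turned to -0.178 without LPS replicate 1 of 24 h (-0.178 to 1.27 without any 1 array). Of 173 genes followed between LPS and SB203580, 57 lost their call with equal medians, 30 without LPS replicate 1 and 29 without SB203580 replicate 3, and no called gene turned its direction under any alternative. Probes near background bound the folds marked at least.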
